A study of Sus scrofa with 2 samples.

Results

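The insulin-like growth factor (IGF) system was examined in skeletal muscle of cloned piglets, through the transcripts of its ligands, receptors and binding proteins. The members were the entries listed under the symbol of IGF1, IGF1R, IGF2R, INSR or IGFBP2 to IGFBP7, together with the entries whose best protein match was named as an IGF, an IGF-binding protein, an insulin receptor or the cation-independent mannose-6-phosphate receptor. This rule found 15 of the 12535 transcript entries with reads in either library, and they stood for 10 genes. An entry is a row of the transcript set the authors mapped to, and 1 gene can have several.

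Biceps femoris muscle was taken on Day 1 after birth from male cloned piglets made by somatic cell nuclear transfer from Large White donors and delivered by caesarean section. RNA of 3 abnormal cloned piglets, which had enlarged tongues, could not stand or walk normally and had an umbilical defect, was pooled into 1 library, and RNA of normal cloned piglets (4 in the study's methods, 3 in the sample labels) into another. All 3 abnormal and 2 normal piglets came from embryonic fibroblasts of 1 male, while 2 normal piglets derived from ear fibroblasts taken from another male. Donor and condition therefore cannot be fully told apart. Both libraries thus came from cloned animals.

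IGF1 and IGF2 are secreted growth factors that bind IGF1R, a tyrosine kinase receptor which drives growth of fetal and newborn muscle. INSR, the insulin receptor, is its close relative and also binds IGF2. IGF2R, the cation-independent mannose-6-phosphate receptor, is an imprinted gene in many mammals, carries enzymes to the lysosome and removes IGF2 from the cell surface. The IGF-binding proteins (IGFBPs) hold IGFs outside the cell and can limit or prolong their action.

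Summed over the transcript entries listed, the libraries held 6.38 M and 6.52 M uniquely mapped reads in the abnormal and normal cloned group. Levels are given as RPKM, the reads per kilobase of transcript, scaled to the mapped reads of the library, and differences as log2 ratios of these levels, the abnormal divided by the normal library, with the 95% interval that counting error allows. An entry was called where the false discovery rate (FDR) of the Audic-Claverie test, which compares the read counts of a pair of libraries under random sampling, was at most 0.001 and the log2 ratio at least 1 in size. With 1 library per group there was no replicate check, so every test compares these libraries and not the conditions, and the spread between piglets is unknown. Over all entries 1510 were called higher and 182 lower in the abnormal library, or 12.0% and 1.45%. The median log2 ratio of entries with at least 10 reads in both libraries was 0.36, and rescaling the libraries by that median changed the calls to 812 higher and 498 lower. Every log2 ratio is therefore to be read against 0.36 as well as 0. Rescaling by the median lowers each by 0.36, by TMM factors by 0.39, and by totals without mitochondrial transcripts by 0.25.

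Of the 15 entries, 3 were called higher (IGF1R, IGF2R and IGF2BP2), beside the 12.0% of all entries called higher, and 1 was called lower (IGFBP5), beside 1.45%. Receptor entries leaned to the abnormal library, and 4 of the 5 IGFBP entries had more reads in the normal library. A further 5 entries had at most 3 reads in each library, a level at which no ratio is given. No member above that level changed sign under the other scalings. When biological variation between piglets was assumed in edgeR, 0 members were called at an assumed value of 0.4, where 3 of all entries were, and IGF1R and IGF2R were called at 0.2. In pooled tissue RNA, fewer cells of a type and less RNA per cell cannot be told apart.

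**Figure D1:**
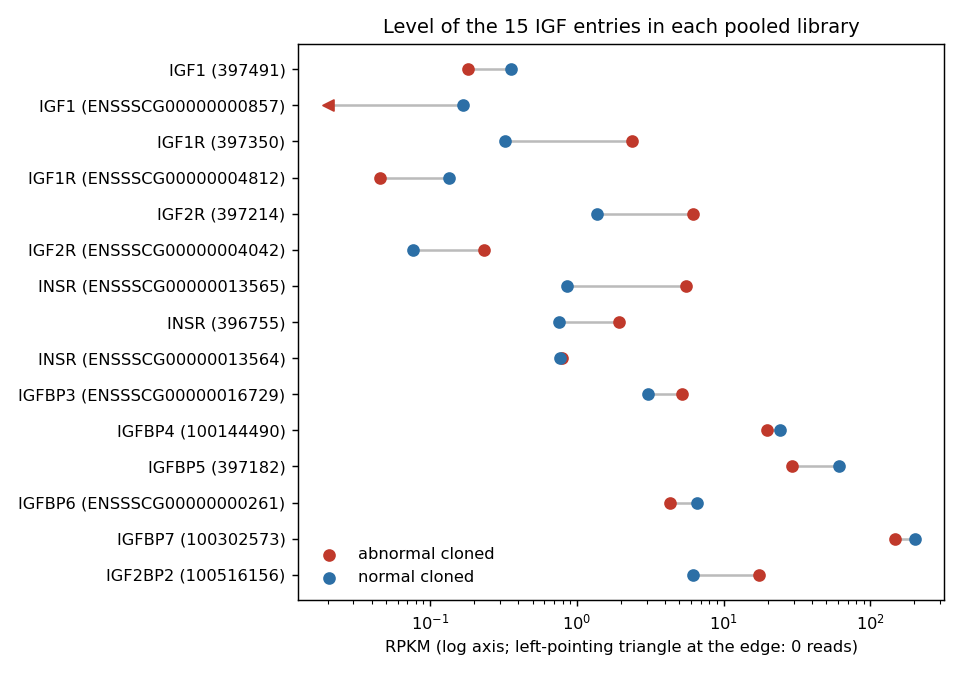
RPKM (log axis) of the 15 IGF entries in the abnormal and normal cloned library, 1 point per library, with entry identifiers in brackets. IGFBP7 lay highest, at 146 and 202 RPKM, and both IGF1 entries lay below 0.4 RPKM in both libraries.

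The ligand IGF1 was hardly detected. Its entry 397491 (chromosome 5, 77082628 to 77154428 on the plus strand of Sscrofa9, 868 bases of transcript) had 1 read in the abnormal library against 2 in the normal, or 0.181 and 0.354 RPKM. The second IGF1 entry, ENSSSCG00000000857, covered the same span and had 0 reads and 1 read. A difference in IGF1 was therefore not detectable at this depth, where 3 reads correspond to 0.470 and 0.460 RPM (reads scaled to the library total, without length). A read that matched both overlapping entries would not be unique and would not be counted, so these numbers may fall short of the full IGF1 level. How many reads were lost in this way was not tested. The rule matched no entry to IGF2, IGFBP1 or IGFBP2, and these genes are not analysed here.

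IGF1R, the signalling receptor of both ligands, rose in the abnormal library. Its entry 397350 (chromosome 1, 145050345 to 145349805 on the minus strand, 4280 bases) counted 65 reads in the abnormal library against 9 in the normal, or 2.38 and 0.323 RPKM. The log2 ratio was 2.88 (95% interval 1.90 to 3.87), a 7.38-fold difference with an interval of 3.72 to 14.6, at an FDR of 7.35e-11 by the Audic-Claverie test. With 9 reads in the normal library it was not tested where at least 10 reads were asked for in both. The overlapping entry ENSSSCG00000004812, 852 bases shorter, had 1 and 3 reads. Summing the reads of both entries gave 66 and 12 reads and a log2 ratio of 2.49 (1.62 to 3.36). Reads of the larger entry covered 22.29% of its bases in the abnormal library against 6.21% in the normal, where reads placed evenly would have covered 52.5% and 9.79%. The counted reads of IGF1R thus lay on a limited stretch of the transcript, and how far the shared sequence of its entries sets that stretch was not tested.

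IGF2R, the receptor that clears IGF2, rose as well and had the most reads of the receptors. Entry 397214 (chromosome 1, 8497941 to 8600764 on the minus strand, 7464 bases) counted 294 reads in the abnormal library against 67 in the normal, or 6.18 and 1.38 RPKM. The log2 ratio was 2.16 (1.78 to 2.55), a 4.48-fold difference with an interval of 3.44 to 5.84, at an FDR of 1.22e-34 by the Audic-Claverie test. Its reads covered 62.15% of the transcript in the abnormal library against 29.37% in the normal. A second entry matched to the same receptor protein, ENSSSCG00000004042, lies apart on that chromosome (8364284 to 8379239 on the plus strand) and had 3 and 1 reads.

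INSR was split over short entries in a row on the plus strand of chromosome 2, and none of its 3 member entries was called. Entry 396755 (50620443 to 50632124, 1212 bases) had 15 and 6 reads in the abnormal and normal library, or 1.94 and 0.760 RPKM, with a log2 ratio of 1.35 (0.03 to 2.67) and an FDR of 0.165 by the Audic-Claverie test. Entry ENSSSCG00000013565 (50638029 to 50638568, 540 bases) had 19 and 3 reads, with a log2 ratio of 2.69 (1.03 to 4.36) and an FDR of 0.00283 in the same test. Entry ENSSSCG00000013564, which overlaps the first, had 3 reads in each library.

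The entries on either side of these were described only as insulin receptor-like and fell outside the rule, and they were chosen after their values were seen. ENSSSCG00000013563 (50600116 to 50609142) had 27 and 7 reads, with a log2 ratio of 1.98 (0.81 to 3.15), and its FDR of 0.00262 by the Audic-Claverie test missed the threshold. ENSSSCG00000013566 (50705553 to 50719925), named INSR in the reference gene table, had 52 and 10 reads and rose by a log2 ratio of 2.41 (1.45 to 3.37) at an FDR of 2.53e-07 in that test. The 5 entries summed to 116 and 29 reads, a 4.09-fold difference with an interval of 2.73 to 6.12. The 3 member entries alone summed to 37 and 12 reads, a log2 ratio of 1.66 (0.73 to 2.58). For comparison, the summed entries differed 5.62-fold (3.07 to 10.3) for IGF1R and 4.46-fold (3.43 to 5.80) for IGF2R. These intervals overlap that of INSR, so no order of the 3 receptors by size of difference can be read from the counts.

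**Figure D2:**
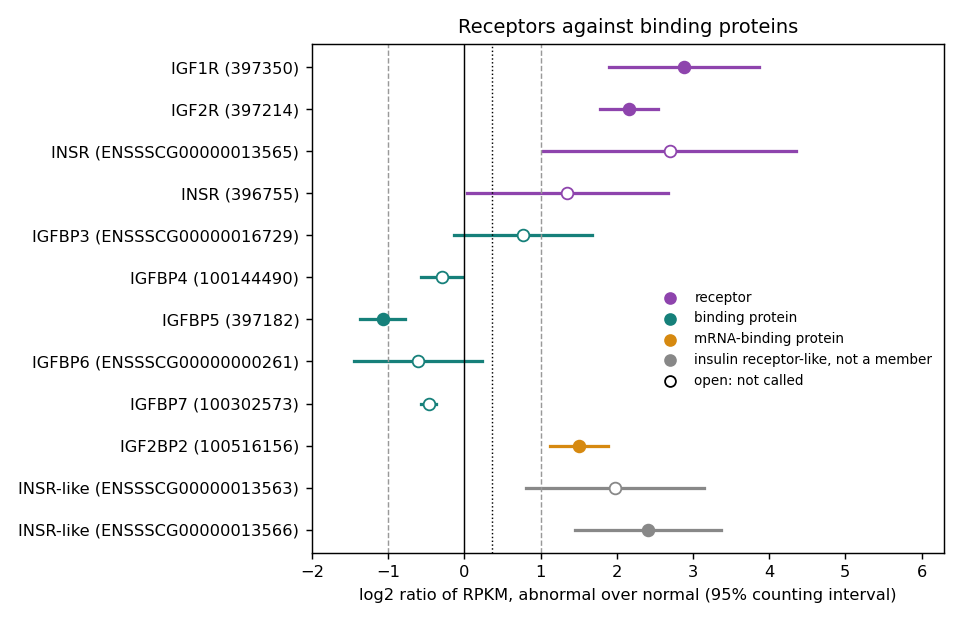
Log2 of the RPKM ratio, abnormal over normal, of the 10 members above 3 reads and of the insulin receptor-like neighbours, with 95% counting intervals, filled where called, dashed lines at -1 and 1 and a dotted line at the overall median of 0.36. All receptor points lie at 1.35 or above, and the IGFBP points lie between -1.07 and 0.77.

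IGFBP5, a binding protein known from bone and muscle, fell in the abnormal library. Entry 397182 (chromosome 15, 112017411 to 112019845 on the plus strand, 727 bases) counted 135 reads in the abnormal library against 290 in the normal, or 29.1 and 61.2 RPKM. Its log2 ratio was -1.07 (-1.37 to -0.78) at an FDR of 1.83e-12 by the Audic-Claverie test. The interval extends to both sides of -1, the fold threshold.

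IGFBP7, which binds IGFs weakly and is common in vessel walls, was the most abundant member. Entry 100302573 (chromosome 8, 48074809 to 48147152 on the minus strand, 1514 bases) had 1412 and 1991 reads in the abnormal and normal library, or 146 and 202 RPKM. The log2 ratio was -0.46 (-0.56 to -0.37), with an FDR of 1.89e-19 by the Audic-Claverie test but a ratio below the fold threshold. IGFBP4, an inhibitor of IGF action that is cut by the protease PAPPA, had 198 and 248 reads (chromosome 12, 19797073 to 19811336), or 19.8 and 24.3 RPKM, and a log2 ratio of -0.29 (-0.56 to -0.02). Its FDR was 0.0855 by the Audic-Claverie test, and it was not called.

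The remaining binding proteins had few reads. IGFBP6, which prefers IGF2 (ENSSSCG00000000261, chromosome 5, 16951997 to 16954796), had 18 and 28 reads, with a log2 ratio of -0.61 (-1.45 to 0.24). IGFBP3, the main carrier of IGFs in serum (ENSSSCG00000016729, chromosome 18, 48778107 to 48782267), had 25 and 15 reads, with a log2 ratio of 0.77 (-0.14 to 1.68). Neither was called, and both intervals include 0. IGFBP3 was the only IGFBP entry with more reads in the abnormal library.

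By RPKM, which allows for length, the order IGFBP7, IGFBP5 and IGFBP4 was the same in both libraries. IGFBP3 at 5.19 RPKM lay above IGFBP6 at 4.32 RPKM in the abnormal library, and below it in the normal library, at 3.05 against 6.57 RPKM. The RPKM of the 5 binding proteins added up to 204.7 in the abnormal against 296.9 in the normal library. IGFBP7 made up 71.5% and 68.0% of this sum, and IGFBP5 made up 14.2% and 20.6%. Counted in reads, the share of IGFBP5 was 7.55% (95% Wilson interval 6.41% to 8.87%) of the IGFBP reads in the abnormal against 11.3% (10.1% to 12.6%) in the normal library. The share of IGFBP7 was 79.0% (77.0% to 80.8%) and 77.4% (75.8% to 79.0%), and these intervals overlap.

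A ratio taken within a library does not depend on how the libraries are scaled to each other. The 7 receptor entries summed to 400 and 92 reads in the abnormal and normal library, and the 5 IGFBP entries to 1788 and 2572 reads. There were thus 22.4 receptor reads per 100 IGFBP reads in the abnormal library against 3.58 in the normal, a 6.25-fold difference with a counting interval of 4.95 to 7.91. Without IGFBP7 the values were 106.4 and 15.8, a 6.72-fold difference (5.17 to 8.72). Without IGF2R they were 5.76 and 0.933, a 6.17-fold difference (3.94 to 9.67). The difference was thus of like size without the binding protein or the receptor that had the most reads. The ratio shows an unequal change of the groups and not which of them changed. It was not adjusted for transcript length, with which the log2 ratios moved in these libraries, as described below. The IGF1R and IGF2R entries are longer than those of the IGFBPs.

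**Figure D3:**
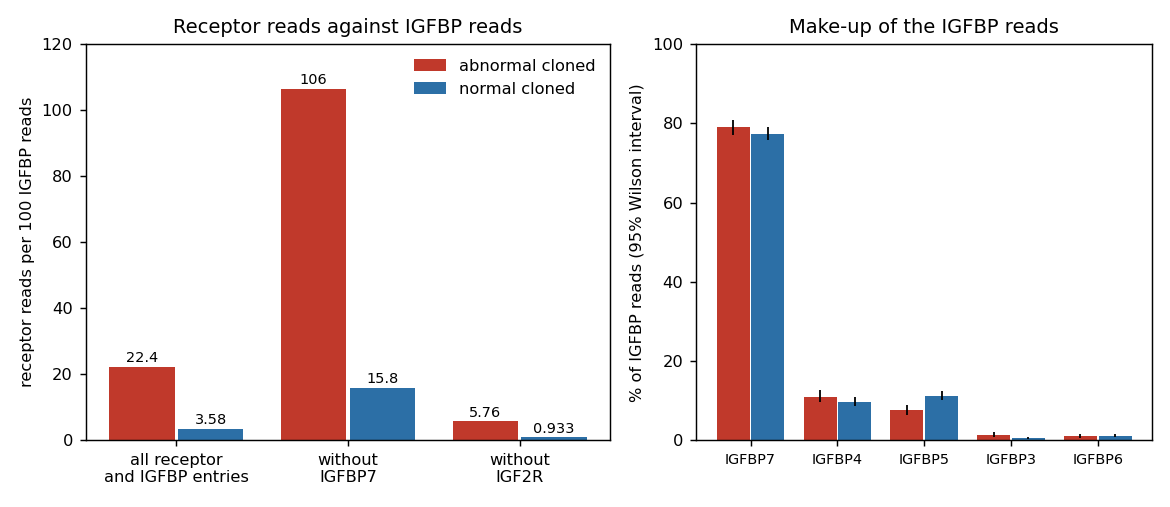
Left, receptor reads per 100 IGFBP reads in each library for all entries, without IGFBP7 and without IGF2R, with values above the bars. Right, percentage of all IGFBP reads that fell on each IGFBP, with 95% Wilson intervals, where IGFBP5 is lower in the abnormal library (7.55% against 11.3%).

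IGF2BP2 entered by the wording of the rule and is not an IGF-binding protein. It is an RNA-binding protein that attaches to messenger RNAs, that of IGF2 among them, and is known from muscle progenitors. Entry 100516156 (chromosome 13, 93473449 to 93508864 on the minus strand, 1870 bases) had 208 and 75 reads in the abnormal and normal library, or 17.4 and 6.16 RPKM. It rose by a log2 ratio of 1.50 (1.12 to 1.88), a 2.83-fold difference, at an FDR of 3.90e-15 by the Audic-Claverie test.

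Transcript length moved with the ratios in these libraries. Among all entries, 4.39% of those under 800 bases were called higher and 25.5% of the 728 entries of 4000 bases or more, and the median log2 ratio at 10 or more reads in both libraries rose from 0.06 to 0.73 between these classes. IGF1R and IGF2R belong to the longest class, and IGFBP3, IGFBP5 and IGFBP6 to the shortest. After subtraction of the running median over entries of like length, the log2 ratio was 2.16 for IGF1R, 1.47 for IGF2R and 1.09 for IGF2BP2. The subtraction changed the log2 ratio only, and calls after it used the FDR of the unadjusted counts. On that basis all 3 were still called. The log2 ratio after the subtraction was -1.10 for IGFBP5, still called lower, -0.77 for IGFBP7 and -0.62 for IGFBP4. The short INSR entry ENSSSCG00000013565 had a log2 ratio of 2.60 after the subtraction. INSR is split over short entries, whose lengths are not that of its transcript. The subtraction therefore cannot allow for the length of INSR.

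**Figure D4:**
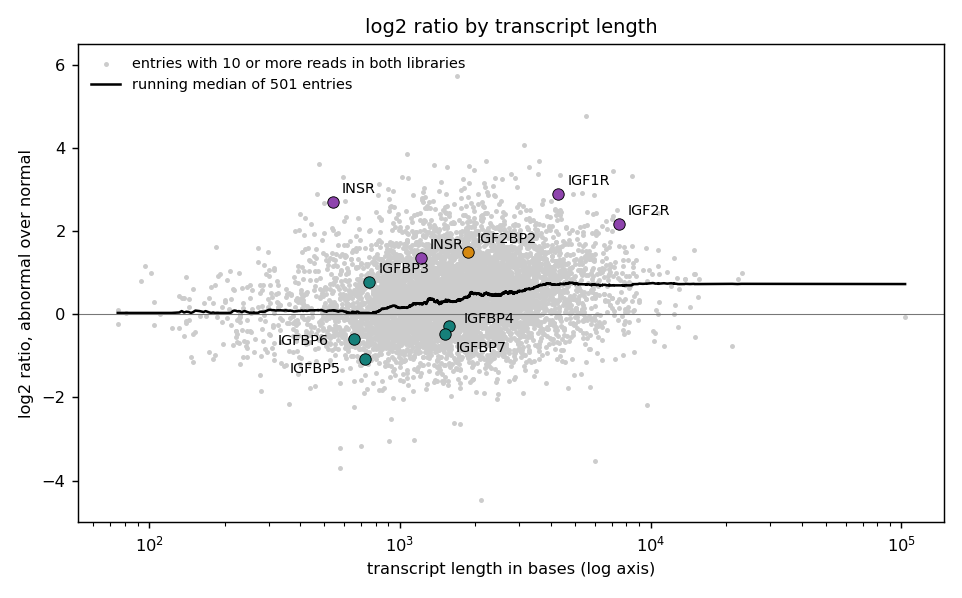
Log2 of the RPKM ratio, abnormal over normal, against transcript length in bases (log axis) for entries with 10 or more reads in both libraries, with their running median and the 10 members above 3 reads. IGF1R and IGF2R lie above the running median at their length (by 2.16 and 1.47), and IGFBP4 to IGFBP7 lie below theirs.

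The genes that carry or modify the IGF and insulin signal were taken from a list of 51 genes, of which 44 were found, in 50 entries. The list was written with earlier results of these data known. Its comparison with all entries is therefore a description and not an independent test. Of the 48 entries above 3 reads, 43 (89.6%) had a positive log2 ratio, beside 67.5% of all entries above 3 reads. By the Audic-Claverie test 16 of the 50 entries were called higher, beside 12.0% of all entries, and 0 lower, beside 1.45%. The 16 called entries stood for 14 genes. The median log2 ratio of the 48 entries was 0.89, beside 0.39 over the 10129 entries of all genes above 3 reads. After the length subtraction it was 0.53 beside 0.03. Rescaling by the median ratio left 8 of the 16 called, beside 6.48% of all entries called higher at that scaling. These were SHC1, RPTOR, RICTOR, both TBC1D4 entries, both FOXO3 entries and IDE, and they also kept the call after the length subtraction. Under edgeR, with biological variation assumed to be 0.4, the exact test called 0 of them and 3 of all 12535 entries.

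**Figure D5:**
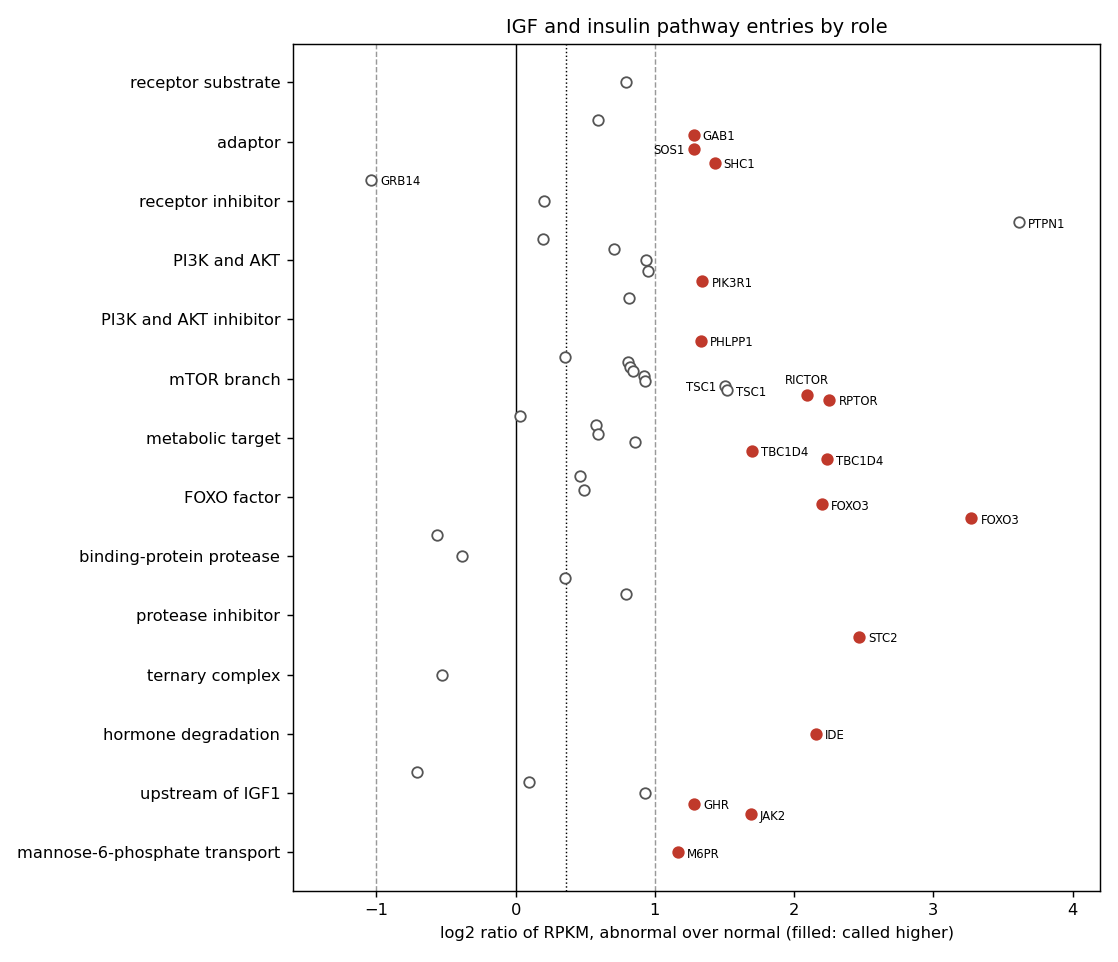
Log2 of the RPKM ratio, abnormal over normal, of the 48 pathway entries above 3 reads, by role, filled where called higher, with dashed lines at -1 and 1 and a dotted line at the overall median of 0.36. The 16 called entries range from 1.16 (M6PR) to 3.27 (FOXO3).

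Near the receptor, 3 of 4 adaptors that couple it to its pathways were called higher in the abnormal library, beside 12.0% of all entries. SHC1 had 137 and 52 reads in the abnormal and normal library (log2 ratio 1.43), SOS1, an activator of RAS, had 390 and 164 reads (1.28), and GAB1 had 57 and 24 reads (1.28). SOS1 and GAB1 were not called after median rescaling, at 0.92 each, nor after the length subtraction, at 0.57 and 0.75. GRB2, the other adaptor, had a log2 ratio of 0.59 and was not called. The only substrate found, IRS1, had 22 and 13 reads and was not called. GRB14, which blocks the kinase of the insulin receptor, had 10 and 21 reads, a log2 ratio of -1.04 that was not called. PTPN1, a phosphatase that switches the receptor off, had 12 reads and 1 read, with a log2 ratio of 3.62 (1.03 to 6.20) that was not called either.

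Further down, a subunit of the lipid kinase and a brake of the pathway were called higher, and neither kept the call after median rescaling, at 0.98 for PIK3R1 and 0.97 for PHLPP1. PIK3R1, the regulatory subunit of PI3-kinase, had 528 and 213 reads (log2 ratio 1.34). PHLPP1, a phosphatase that switches AKT off, had 96 and 39 reads (1.33), or 0.64 after the length subtraction. AKT2, the AKT form linked to insulin action in muscle, had 908 and 479 reads, and its log2 ratio of 0.95 stayed below the fold threshold.

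In the mTOR branch, RPTOR, a subunit of mTOR complex 1, rose in 1 of its 2 entries, ENSSSCG00000017139 (42 and 9 reads, log2 ratio 2.25). Its other entry, 100512677, had more reads (86 and 49), a log2 ratio of 0.84 and an FDR of 0.00454 by the Audic-Claverie test, and was not called. RICTOR, a subunit of mTOR complex 2, rose by 2.09 (96 and 23 reads). MTOR itself had a log2 ratio of 0.93 and was not called. The 2 entries of TSC1, an inhibitor of this branch, had 25 and 9 reads (1.50) and 28 and 10 reads (1.52) and were not called.

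Among the targets, TBC1D4, which AKT acts on to bring glucose transporters to the membrane, rose in both of its entries, by 1.70 (143 and 45 reads) and 2.23 (152 and 33 reads) on the log2 scale. FOXO3, a transcription factor that AKT restrains and that drives muscle protein breakdown, rose in both of its entries, by 2.20 (144 and 32 reads) and 3.27 (123 and 13 reads), which share 1 Ensembl gene. The glucose transporter SLC2A4 had a log2 ratio of 0.58 and was not called.

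Outside the cell and upstream, STC2, an inhibitor of the IGFBP protease PAPPA, had 27 and 5 reads (log2 ratio 2.46) and was called higher. IDE, an enzyme that degrades insulin, had 266 and 61 reads (2.16), and GHR, the growth hormone receptor that drives IGF1 production, had 238 and 100 reads (1.28). JAK2, the kinase bound to GHR, had 60 and 19 reads (1.69), and M6PR, the smaller mannose-6-phosphate receptor, had 193 and 88 reads (1.16). All 4 of these were called higher, but only IDE kept the call after median rescaling and after the length subtraction. GHR and M6PR lay at 0.92 and 0.80 after the rescaling, and GHR, JAK2 and M6PR at 0.83, 0.93 and 0.86 after the subtraction. STC2 and JAK2 stayed above the fold threshold after the rescaling, at 2.10 and 1.33, and missed the FDR threshold. HTRA1, a protease that cuts IGFBPs, had 409 and 617 reads, with a log2 ratio of -0.56, below the fold threshold. IGFALS, which holds IGFs in the serum complex with IGFBP3, had 19 and 28 reads. The 32 entries not called ranged from -1.04 to 3.62 on the log2 scale, and 27 of them were positive.

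Marker genes of muscle and of other cell types were read beside these values. Of 12 skeletal muscle markers 5 were matched by symbol, and they summed to 103912 and 99112 RPM in the abnormal and normal library. ACTA1, the actin of skeletal muscle, had 431743 and 390261 reads. MYH7, the myosin of slow fibres, fell from 1407 reads in the normal to 120 in the abnormal library (log2 ratio -3.52), while the fast myosins MYH1 and MYH2 had log2 ratios of -0.49 and -0.08 and were not called. Of 4 satellite cell markers 3 were found, and the list summed to 138 and 114 RPM. MYF5, a factor of muscle progenitors, was called higher in its entry ENSSSCG00000000937 (391 and 130 reads, log2 ratio 1.62). Its other entry (23 and 14 reads, 0.75) and NCAM1 (0.57) were positive and not called. CDH15 went the other way (278 and 470 reads, log2 ratio -0.73) and was not called.

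The liver markers, 5 of 7 found, summed to 51.9 and 98.4 RPM. ALB (12 and 271 reads) and FGB (4 and 36 reads), both secreted by liver, fell, whereas APOA1, the liver marker with most reads, had 298 and 281. The red blood cell markers, 2 of 6 found, summed to 436 and 627 RPM, with HBB at 2692 and 4003 reads and ALAS2 at 86 and 84. The matrix and fibroblast markers (7 of 8 found) summed to 5063 and 5620 RPM, the smooth muscle and pericyte markers (4 of 6) to 335 and 393, and the macrophage markers (4 of 6) to 21.3 and 26.9. The sums of these 5 lists lay on the same side as IGFBP4 to IGFBP7, but their members did not all do so. Among smooth muscle and pericyte markers only ACTA2 was negative (log2 ratio -0.34), with PDGFRB at 0.20, RGS5 at 0.02 and CSPG4 at 0.22. In the matrix list PDGFRA (0.86) and both FN1 entries (0.68 and 1.35) were positive, and COL1A2, COL3A1, DCN, LUM and POSTN negative. Among macrophage markers CSF1R was positive (0.09), and CD14, AIF1 and LYZ negative. The endothelial markers (6 of 7 found) summed to 226 and 221 RPM and the adipocyte markers (4 of 6) to 422 and 261. Nearly all of the adipocyte reads were those of CD36 (2659 and 1663), while LPL had 30 and 38 reads. PLIN1 had 2 and 0 reads, and LEP had 1 and 0. The part of any of these cell types or of slow fibres in the values of the IGF entries was not tested.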

How the data were processed

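The authors removed low-quality reads, mapped the rest to Sscrofa9 transcripts with SOAPaligner/soap2 (version not given in the sources used here) with up to 2 mismatches, and deposited for each transcript its count of unique reads, without normalization. They also deposited RPKM, which divides that count by transcript length and total unique reads, and the coverage as a percent of transcript bases with a read. Entries absent from a table were taken as 0 reads.

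The Audic-Claverie test, two-sided by doubling, was run on all 12535 entries with Benjamini-Hochberg adjustment. An RPKM of 0 was set to 0.001. Intervals come from the 95% Wilson interval for the share of reads in the abnormal library, and those of ratios of sums are Wald intervals on the log scale. All cover counting error only. The scripts were tested on simulated data. Members and gene lists were chosen with earlier results of these data known. From the pathway list every called entry is named, and every entry with an absolute log2 ratio of 1 or more and 10 reads in 1 library. A tuberin-like protein and an entry whose symbol and protein name differed were left out of that list, and 1 further gene is not reported here. Of the identifiers 9003 of 12535, and 9 of the 15 members, matched the reference gene table, and coordinates are those of the deposited tables. Even coverage was computed for reads of 49 bases, the length covered by 2140 of 2144 entries with 1 read.

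Alternatives were scaling by the median ratio, by TMM and without mitochondrial transcripts, Fisher's exact test, the edgeR test at assumed variations of 0.4 and 0.2, at least 10 reads in both libraries, 1 RPKM added, and an FDR of at most 0.05. Sums over entries of an Ensembl gene and the length subtraction were added after seeing the data. The length subtraction kept the FDR of the unadjusted counts, whereas the other scalings were tested anew. Python 3.11.15, numpy 2.4.6, pandas 2.3.3, scipy 1.17.1, matplotlib 3.10.9, R 4.3.3 and edgeR 4.0.16 were used. DNA methylation measurements were not analysed here.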

Additional observations from a re-analysis of the deposited data

How the results depend on the processing

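Of 107 comparisons of a member's log2 ratio with its value under an alternative, 100 kept direction and call, 6 lost the call, 1 gained it and 0 changed sign. Many of these could not change sign. Fisher's test, edgeR, the other FDR and the filter of 10 reads left the log2 ratio unchanged, and 1 RPKM added to both libraries keeps its sign. Only the members called at first, 3 higher and 1 lower, could lose a call. The 6 losses came under edgeR. IGF1R, with 9 reads in the normal library, was not tested where at least 10 reads were asked for in both, which left 2 members called higher. At an assumed variation of 0.4 it called 0 members higher and 0 lower, and with 0.2 it called 0 lower, without IGFBP5 and IGF2BP2. The gain was INSR entry ENSSSCG00000013565 at an FDR of at most 0.05. The pathway entries called higher numbered 8 after median-ratio scaling, 8 with TMM, 0 and 4 with edgeR at 0.4 and 0.2, and 10 after the length subtraction, which also called 1 (HTRA1) lower. Over all entries, TMM gave 751 higher and 548 lower, totals without mitochondrial transcripts 987 and 369, the length subtraction 926 and 314, edgeR at 0.4 gave 2 and 1, and edgeR at 0.2 gave 243 and 20. No paired analysis was possible because each group had 1 library, and for the same reason no replicate could be left out. The depth limits IGF1, IGFBP3, IGFBP6 and the INSR entries, which had at most 28 reads in each library.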

Other observations

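Relatives of the IGF receptors and binding proteins outside the rule had few reads. INSRR, an orphan receptor related to INSR, counted 2 reads in the abnormal library against 13 in the normal, a log2 ratio of -2.67 (95% interval -4.66 to -0.68), the opposite side from INSR, and its FDR of 0.0160 by the Audic-Claverie test missed the threshold.

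Entries that share an Ensembl gene with another entry had reads on a smaller part of the transcript. Over the 432 such entries, those with 10 to 300 reads covered a median of 0.340 of the bases that even placement would give in the abnormal library (n = 156), and 0.352 in the normal library (n = 143). For the 12103 entries with an Ensembl gene of their own the medians were 0.884 (n = 6465) and 0.852 (n = 6390). Of the 15 IGF entries 6 share a gene, namely those of IGF1 and IGF1R and the overlapping INSR entries. Only unique reads were counted, and how far shared sequence limits the counts of these entries was not tested.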
